A study of Homo sapiens with 18 samples.

Results

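The CC chemokines described here are the 10 genes CCL1, CCL2, CCL3, CCL4, CCL5, CCL7, CCL8, CCL20, CCL22 and CCL23, chosen by name and found by matching each Ensembl gene to its GENCODE 29 symbol. All 10 were found, 1 row each, among 57500 genes in 18 RNA-seq libraries of THP-1, a human monocytic leukaemia cell line. The study lowered the nuclear receptors NR4A2 and NR4A3 separately and read the RNA with and without lipopolysaccharide (LPS), a bacterial cell wall component. It used 3 stable lines made with lentiviral short hairpins and kept under puromycin: shNT with a non-targeting hairpin, shNR4A2 and shNR4A3. After 2 h in buffered DMEM, cells of each line received LPS at 2.5 μg/ml for 2 h or no stimulus (control), which makes 6 groups of 3 libraries. All 3 lines carry a lentivirus and its selection marker, each knockdown is 1 transduced line named for its target, and how many hairpin sequences it carries and whether any line is a clone are not given in the sources used here. Total counts ran from 16171161 to 23929138 per library (median 19639071).

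Chemokines are small secreted proteins that draw leukocytes along a concentration gradient by binding G protein-coupled receptors, and the CC family is named for a pair of adjacent cysteines near the amino terminus. Monocytes and macrophages are a main source of the inflammatory members, several of which are transcribed soon after LPS binds the TLR4, MD-2 and CD14 complex and releases NF-kappaB. CCL3 and CCL5 bind CCR1. CCL2, CCL7 and CCL8 bind CCR2, CCL1 binds CCR8, CCL20 binds CCR6, CCL22 binds CCR4 and CCL23 binds CCR1. NR4A2 and NR4A3 are orphan nuclear receptors that are themselves induced early by inflammatory stimuli.

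Of the 10 genes, 8 lie on chromosome 17 in the coordinates of the deposited tables (GRCh38). CCL2 (ENSG00000108691, chr17:34255218-34257203), CCL7 (ENSG00000108688, chr17:34270221-34272242), CCL8 (ENSG00000108700, chr17:34319036-34321402) and CCL1 (ENSG00000108702, chr17:34360328-34363231) form one stretch, with 13.0 kb between CCL2 and CCL7. A gap of 1508 kb separates CCL1 from the second stretch of CCL5 (ENSG00000271503, chr17:35871491-35880793), CCL23 (ENSG00000274736, chr17:36013056-36017968), CCL3 (ENSG00000277632, chr17:36088256-36090169) and CCL4 (ENSG00000275302, chr17:36103590-36105621), where CCL3 and CCL4 are 13.4 kb apart. CCL20 (ENSG00000115009) is at chr2:227813842-227817564 and CCL22 (ENSG00000102962) at chr16:57358772-57366190.

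The promoter windows used, from RefSeq on GRCh38.p14, run from 250 bases before to 50 bases after an annotated start, and 7 of the 10 genes had at least one (CCL1, CCL3, CCL7, CCL8, CCL20, CCL22 and CCL23), 9 windows in all because CCL3 has 3 starts. Matches are counted by gene. The NF-kappaB consensus (kappaB, both strands) was found in the windows of CCL20 and CCL22, against 7.09% of 27305 genes (5.91% of their 35116 windows). The NBRE, the element that NR4A receptors bind as monomers (an A before AAGGTCA), was in none of the 9 windows, and 1.49% of all genes held it (1.22% of windows). Its last 7 letters alone were in the CCL20 window and in 4.80% of all genes (3.92% of windows). Its first 7 letters alone were in none of the 9 windows and in 3.66% of all genes (3.02% of windows). The 250 bases before the start of both genes are printed because they hold the kappaB match and because CCL20 rose with LPS and CCL22 did not pass the test. Capitals mark the kappaB match, whose first printed base is at -79 in CCL20 and -185 in CCL22 relative to the start. The consensus is read on the other strand in CCL20 and on the printed strand in CCL22. In CCL20 capitals also mark the last 7 letters of the NBRE, read on the other strand, at -172:
CCL20, chr2:227813592-227813841, + strand: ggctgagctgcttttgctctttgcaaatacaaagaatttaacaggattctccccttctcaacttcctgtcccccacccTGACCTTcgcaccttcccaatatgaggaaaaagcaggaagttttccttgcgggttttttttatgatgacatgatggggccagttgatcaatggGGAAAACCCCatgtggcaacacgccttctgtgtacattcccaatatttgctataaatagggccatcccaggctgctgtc
CCL22, chr16:57358533-57358782, + strand: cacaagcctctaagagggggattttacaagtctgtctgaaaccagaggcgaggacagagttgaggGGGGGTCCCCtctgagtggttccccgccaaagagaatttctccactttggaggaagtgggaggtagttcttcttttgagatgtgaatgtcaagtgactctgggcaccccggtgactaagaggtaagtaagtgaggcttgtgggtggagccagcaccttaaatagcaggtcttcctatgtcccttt
Of the other letters searched on both strands, TATAAA was in the windows of CCL3, CCL7, CCL8, CCL20 and CCL23 (14.0% of all genes, 11.5% of windows) and the AP-1 letters TGANTCA in that of CCL7 (9.37% of genes, 7.71% of windows). These are matches of letters only. A window without a match says only that the letters are not in that window.

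The targeted genes were checked first, and the labels held. In TPM (transcript abundance, the count divided by exon length, with each library brought to 1000000), NR4A2 was 62.2, 74.7 and 51.3 in shNT cells with LPS and 20.5, 28.3 and 14.8 in shNR4A2 cells with LPS. NR4A3 was 30.9, 32.3 and 31.9 TPM in shNT cells with LPS and 17.0, 18.2 and 16.7 in shNR4A3 cells with LPS. Neither pair of groups overlapped. The log2 fold changes were -1.52 (SE 0.192) for NR4A2 and -0.82 (SE 0.0799) for NR4A3, with adjusted p = 0.00265 and 0.000556 by edgeR's quasi-likelihood test, in which every p reported here as adjusted was corrected over all genes tested by Benjamini and Hochberg and called at 0.05. Both genes rose with LPS in each line (log2 fold change 4.29 for NR4A2 and 5.98 for NR4A3 in shNT cells). Without LPS, NR4A2 was lower by -0.91 in shNR4A2 cells (adjusted p = 0.0359), a call kept in 2 of the 6 fits that each left out 1 library. In unstimulated shNR4A3 cells NR4A3 was lower by -2.47 (adjusted p = 0.00767). NR4A3 had few counts without LPS, given its rise of 5.98, so the filter on low counts can have kept it through the shNT libraries alone. That call therefore carries no weight in the check of the labels.

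Monocytic markers were present throughout. All 10 of a list of monocytic markers were over 1 TPM in every group and none was at 0, the highest being ELANE, neutrophil elastase, a granule protease of immature myeloid cells (4154 TPM in shNT control cells). Of markers of other cells, TRAC was the sole T cell marker of 5 over 1 TPM (1.47 to 5.26 TPM by group), NKG7 the sole NK cell marker of 4, at 38.5 to 54.5 TPM, and GP9 the sole erythroid or megakaryocytic marker of 5, at 3.13 to 7.42 TPM. These samples are bulk RNA, so a transcript made by fewer cells and one made at a lower level in each cell cannot be told apart.

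**Figure D1:**
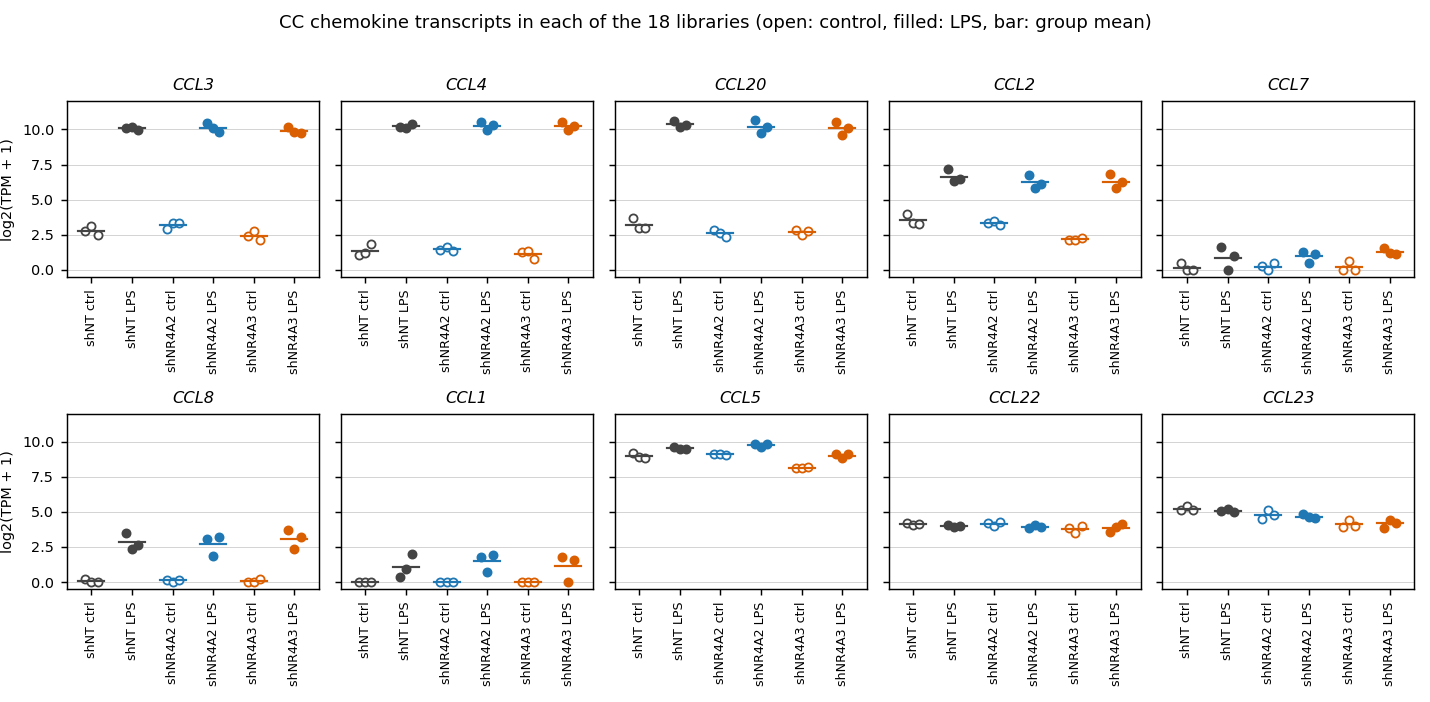
Each panel shows 1 CC chemokine gene as log2(TPM + 1) (vertical axis, same range in every panel) in the 6 groups, with open points for control libraries, filled points for LPS libraries and a bar for the group mean. CCL3, CCL4 and CCL20 are low in control libraries and between 786 and 1651 TPM with LPS, CCL5 is high in both conditions, and CCL22 and CCL23 stay near their control level.

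Unstimulated cells made 1 CC chemokine transcript in quantity. CCL5 (RANTES), which attracts T cells, monocytes and eosinophils, stood at 504 ± 60.6 TPM (SD, n = 3) in shNT control cells, 231st of all genes by mean TPM, and made 86.1% of the summed TPM of the 10 genes. CCL23, a ligand of CCR1, followed at 37.0 ± 4.93 TPM and CCL22, which attracts CCR4-bearing T cells, at 16.8 TPM. CCL2, CCL20 and CCL3 came next at 10.8, 8.47 and 6.01 TPM, and the libraries of neighbours in this order overlapped. CCL4 was at 1.66 TPM, while CCL7 and CCL8 had 2 counts and 1 count over the 3 libraries and CCL1 had 0, which allows up to 0.0519 CPM (counts scaled to library totals of 1000000). The order was the same at the top in all 3 lines, although CCL23 and CCL22 overlapped in shNR4A3 control cells.

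With LPS the mixture was another one. The summed TPM of the 10 genes was 658, 569 and 529 in the shNT control libraries and 4783, 4251 and 4456 in the shNT LPS libraries, from 0.0585% to 0.450% of all TPM. CCL20 now made 29.2% of that sum, CCL4 26.5%, CCL3 24.2% and CCL5 16.5%. By mean TPM CCL20, CCL4 and CCL3 stood at ranks 90, 109 and 117 among all genes, from ranks 9763, 14691 and 10779 in control cells, and their libraries overlapped with each other but not with those of CCL5 below them. In shNR4A2 cells the sum went from 611, 622 and 607 to 5648, 3805 and 4292 TPM. In shNR4A3 cells it went from 322, 327 and 336 to 4765, 3252 and 3839 TPM, the lowest control values of the 3 lines, and CCL5 made 86.5% of the sum before LPS and 13.2% after.

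**Figure D2:**
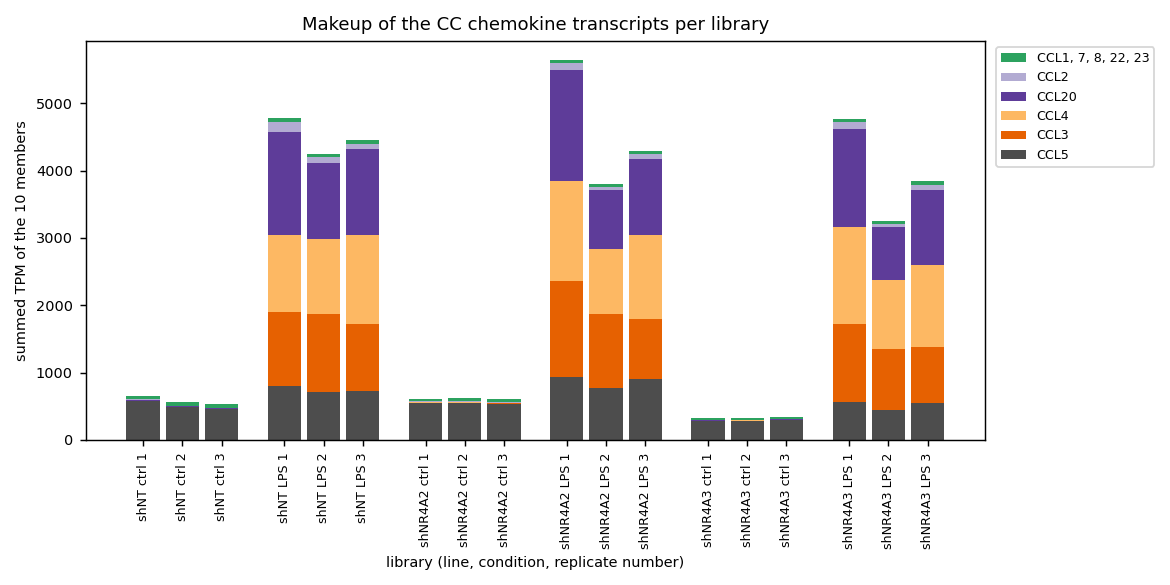
Stacked bars give the TPM of the CC chemokine genes in each of the 18 libraries (vertical axis from 0, summed TPM of the 10 genes), by line, condition and replicate number. CCL5 fills most of every control bar (86.1% on average in shNT cells), and CCL3, CCL4 and CCL20 fill most of every LPS bar.

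The first comparison asked what LPS did within each line. In shNT cells 6 of the 8 genes tested were higher with LPS and 0 were lower, where 11.6% of all genes tested were higher and 13.3% lower, and the same 6 were higher in shNR4A2 cells (9.23% of all genes) and in shNR4A3 cells (13.1%). They were CCL2, CCL3, CCL4, CCL5, CCL8 and CCL20. Every one of the 6 calls held in each line in all 6 fits that left out 1 library. CCL8 passed the filter on low counts through its LPS libraries alone, so it had to differ and its place in these counts carries no weight. In shNR4A3 cells CCL4 had control counts of 14, 14 and 7, the last of them below the filter's limit. It too passed there through its LPS libraries, so its place in the count of that line carries no weight either. The groups of these 6 genes did not overlap in any line, as was true of 39.7%, 36.6% and 43.5% of all genes tested. With LPS the TPM scale itself moved, since the median over expressed genes of the TPM ratio was -0.23, -0.28 and -0.23 (log2) in shNT, shNR4A2 and shNR4A3 cells, and the fold changes that follow are relative to that, from counts normalised by TMM.

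CCL3 and CCL4 (MIP-1α and MIP-1β), which attract monocytes, NK cells and T cells, both rose steeply, and CCL4 had the largest fold change of the tested genes in every line. CCL4 was 1.12, 1.33 and 2.53 TPM in the shNT control libraries and 1143, 1107 and 1323 TPM with LPS. In shNR4A2 cells it was 1.67, 2.06 and 1.54 against 1487, 972 and 1242 TPM, and in shNR4A3 cells 1.37, 1.56 and 0.686 against 1444, 1014 and 1215 TPM. The lowest LPS library was thus far above the highest control library in each line. The log2 fold change was 9.70 (SE 0.189, adjusted p = 2.17e-13) in shNT cells, 9.74 (SE 0.268, adjusted p = 2.42e-10) in shNR4A2 cells and 10.22 (SE 0.258, adjusted p = 7.49e-10) in shNR4A3 cells.

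CCL3 was 5.76, 7.80 and 4.46 TPM in shNT control libraries and 1098, 1169 and 990.3 TPM with LPS. It was 6.59, 9.31 and 9.25 against 1425, 1089 and 894 TPM in shNR4A2 cells, and 4.40, 5.75 and 3.33 against 1168, 907 and 838 TPM in shNR4A3 cells. Here too every LPS library stood far above every control library. The log2 fold changes were 7.72 (SE 0.158, adjusted p = 3.65e-13), 7.36 (SE 0.241, adjusted p = 6.99e-10) and 8.0 (SE 0.217, adjusted p = 1.01e-09) in that order of lines. Both genes have a near-identical copy, CCL3L1 and CCL4L2, and how reads that fit a gene and its copy were counted is not given in the sources used here, so the split between them is uncertain. With the copy's counts added, the log2 fold change in shNT cells was 7.05 for CCL3 and 9.71 for CCL4.

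CCL20 (MIP-3α), which draws CCR6-bearing dendritic cells and Th17 cells, had the highest mean TPM of the 10 genes in shNT cells with LPS, where its libraries overlapped those of CCL4. It was 11.6, 6.82 and 6.94 TPM in shNT control libraries and 1540.3, 1137 and 1272 TPM with LPS. In shNR4A2 cells the values were 6.19, 5.25 and 4.16 TPM against 1651, 869.8 and 1137 TPM, and in shNR4A3 cells 6.08, 4.72 and 5.63 TPM against 1447, 786 and 1123 TPM. Replicate number 1 was the highest and number 2 the lowest LPS library in each line. The log2 fold changes were 7.48 (SE 0.196, adjusted p = 2.83e-12), 8.15 (SE 0.314, adjusted p = 2.43e-09) and 7.90 (SE 0.292, adjusted p = 1.07e-08) in shNT, shNR4A2 and shNR4A3 cells.

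The monocyte chemoattractants CCL2, CCL7 and CCL8 lie in the same stretch of chromosome 17, and their levels were far apart. CCL2 (MCP-1), which recruits CCR2-bearing monocytes, was 14.6, 9.12 and 8.62 TPM in shNT control libraries and 141, 80.1 and 85.9 TPM with LPS, a log2 fold change of 3.46 (SE 0.240, adjusted p = 1.1e-07). In shNR4A2 cells it was 9.30, 10.1 and 7.95 TPM against 106, 56.0 and 69.2 TPM (3.36, SE 0.255, adjusted p = 1.24e-06). In shNR4A3 cells it was 3.41, 3.42 and 3.81 TPM against 111, 55.6 and 73.7 TPM (4.73, SE 0.294, adjusted p = 5.96e-07). LPS libraries of the 3 lines overlapped in CCL2, whereas the shNR4A3 control libraries lay below all other control libraries, and as with CCL20 the LPS library numbered 1 was the highest and that numbered 2 the lowest in each line.

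CCL8 (MCP-2) was nearly silent in control cells, with counts of 1, 0 and 0 in the shNT libraries, 1, 0 and 1 in shNR4A2 and 0, 0 and 1 in shNR4A3. With LPS the counts were 76, 29 and 41 in shNT, 46, 18 and 61 in shNR4A2 and 84, 24 and 61 in shNR4A3 cells. The ratio of summed counts per library total was 136 (95% interval 24.0 to 5399), 71.2 (19.3 to 595) and 157 (27.8 to 6234), exact binomial intervals that cover counting error only. CCL7 (MCP-3) went from 2 counts to 15 over the 3 libraries in shNT, from 3 to 14 in shNR4A2 and from 2 to 20 in shNR4A3 cells. Its ratios were 6.97 (1.62 to 62.9), 5.32 (1.48 to 28.9) and 9.28 (2.26 to 81.9), and its shNT libraries overlapped, since the LPS library numbered 2 had 0 counts. CCL7 lies between CCL2 and CCL8 on the chromosome and had the lowest mean TPM of the 3 with LPS in every line. CCL1 (I-309), the ligand of CCR8, had 0 counts in all 9 control libraries and 1, 3 and 11 counts in shNT, 7, 2 and 10 in shNR4A2 and 8, 0 and 7 in shNR4A3 cells with LPS. Set against a floor of 3 control counts over the group, its LPS counts per library total were 4.65-fold, 7.22-fold and 4.64-fold higher. These values leave out the counting error of the LPS libraries and are no lower bound. Neither CCL1 nor CCL7 had enough counts to be tested by edgeR. DESeq2 called CCL1 in shNR4A2 cells (adjusted p = 0.00632) and gave it no adjusted p in the other lines. With 0 counts in every control library CCL1 could only come out higher, so that call carries no weight.

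CCL5, already high, rose by a small factor. It was 572, 485 and 456 TPM in shNT control libraries and 800.1, 704 and 729 TPM with LPS, a 1.72-fold rise (log2 0.78, SE 0.104, adjusted p = 7.88e-05). In shNR4A2 cells it was 548, 545 and 539 TPM against 929, 775 and 902 TPM (log2 0.95, SE 0.130, adjusted p = 0.000211). In shNR4A3 cells it was 279, 281 and 293 TPM against 556, 449 and 544 TPM (log2 1.10, SE 0.116, adjusted p = 4.33e-05). LPS and control libraries did not overlap within a line, but the shNR4A3 LPS libraries sat at the level of the shNT control libraries.

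CCL22 and CCL23 did not pass the test in any line. CCL22 was 17.7, 15.8 and 17.0 TPM in shNT control libraries and 15.9, 14.0 and 14.8 TPM with LPS, with a log2 fold change of 0.048 (95% interval -0.22 to 0.31). CCL23 was 34.7, 42.6 and 33.5 TPM against 32.3, 35.2 and 31.4 TPM, at 0.052 (-0.29 to 0.39). The TPM ratios of both genes in shNT cells were below 1 (0.887 and 0.892), the other side of the TMM value, so no direction is given. In shNR4A3 cells the log2 fold changes were 0.33 for CCL22 (adjusted p = 0.26) and 0.30 for CCL23 (adjusted p = 0.349).

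**Figure D3:**
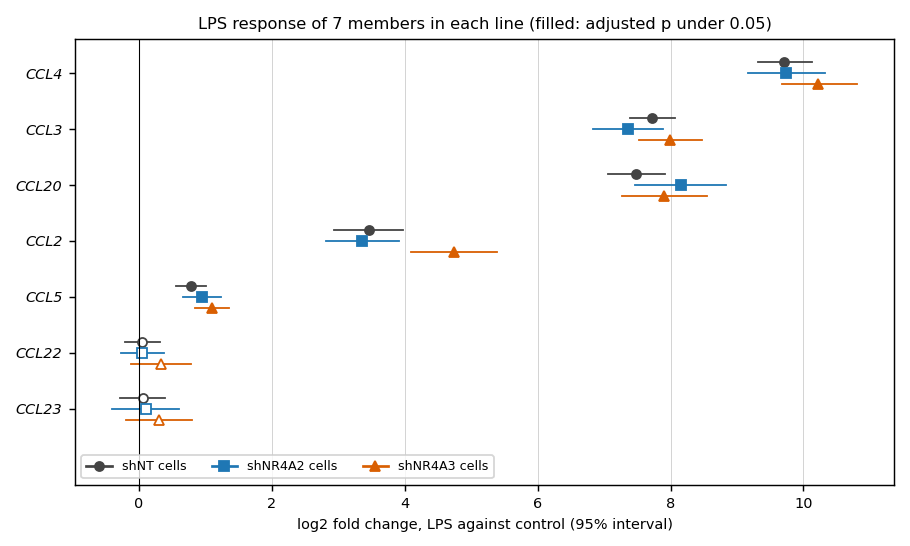
Points give the log2 fold change of LPS against control (horizontal axis) for 7 CC chemokine genes in shNT, shNR4A2 and shNR4A3 cells, with 95% intervals, filled where the adjusted p is under 0.05. CCL8, nearly silent in control cells, is left out, and CCL4 in shNR4A3 cells passed the filter on low counts through its LPS libraries. CCL4 lies near 10 (9.70 in shNT cells), CCL3 and CCL20 near 8, CCL2 between 3.36 and 4.73, CCL5 near 1, and CCL22 and CCL23, with open symbols, between 0.048 and 0.33.

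Other ligands of the family were read from a list of 18 symbols, 16 of which were in the tables and 4 of which could be tested. In each line 2 of the 4 were higher with LPS and 1 was lower, where 11.6%, 9.23% and 13.1% of all genes were higher and 13.3%, 10.1% and 15% lower in shNT, shNR4A2 and shNR4A3 cells. The higher pair were the copies of the genes above: CCL4L2 went from 1.99 ± 0.125 to 1439 ± 143 TPM and CCL3L1 from 11.3 ± 2.27 to 879 ± 36.3 TPM in shNT cells (SD, n = 3). CCL28, a mucosal chemokine that binds CCR10 and CCR3, was lower, at -0.58, -0.64 and -0.91 (log2; adjusted p = 0.00513, 0.0304 and 0.00199) in shNT, shNR4A2 and shNR4A3 cells, and the call in shNR4A2 cells held in 2 of the 6 fits that left out 1 library. It was also lower in shNR4A2 than in shNT control cells (-0.58, adjusted p = 0.03; 2.82% of all genes were lower), a call kept in 3 of the 6 fits that left out 1 library, and was the only 1 of the 4 called between a knockdown line and shNT cells. With replicate number as a block, under which 28.1% and 21.8% of all genes passed against shNT cells with LPS, CCL28 was lower there too, in shNR4A2 (-0.65, adjusted p = 5.06e-05) and shNR4A3 cells (-0.59, adjusted p = 0.00233), and CCL3L1 was higher in shNR4A2 cells with LPS (0.22, adjusted p = 0.026). Between the knockdown lines with LPS, the block (23.6% of all genes) called CCL3L1 (0.20, adjusted p = 0.00869) and CCL24 (0.84, adjusted p = 0.0174) higher in shNR4A2 cells. CCL24 (eotaxin-2), the next most abundant, had log2 fold changes of 0.043, 0.13 and -0.17 that did not pass the test.

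The second question was whether the CC chemokines differed between the knockdown lines and shNT cells. Within a condition both knockdowns are set against the same shNT libraries, so the values of shNR4A2 and shNR4A3 against shNT are not independent of each other. In unstimulated shNR4A3 cells 3 of 7 genes tested were lower than in shNT cells and 0 were higher, where 3.32% of all genes tested were lower. They were CCL2, CCL5 and CCL23. Over the 7 tested the median log2 fold change was -0.58, against -0.0031 over all genes tested. The libraries of 5 of the 7 did not overlap (CCL2, CCL5, CCL20, CCL22 and CCL23), against 25.6% of all genes.

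In control cells CCL2 was 14.6, 9.12 and 8.62 TPM with shNT and 3.41, 3.42 and 3.81 TPM with shNR4A3, a log2 fold change of -1.56 (SE 0.248, 95% interval -2.09 to -1.02, adjusted p = 0.00181). CCL5 was 572, 485 and 456 TPM with shNT and 279, 281 and 293 TPM with shNR4A3, a log2 fold change of -0.78 (SE 0.101, adjusted p = 0.000404). CCL23 was 34.7, 42.6 and 33.5 TPM with shNT and 14.3, 20.5 and 14.6 TPM with shNR4A3, -1.13 on the log2 scale (SE 0.199, adjusted p = 0.00366). All 3 shNR4A3 libraries lay below all 3 shNT libraries for each of these genes. The 3 calls held in all 6 fits that left out 1 library, by DESeq2 (7.58% of all genes it tested), and with replicate number as a block. The other 4 genes did not pass: CCL20 at -0.58 (adjusted p = 0.242), CCL22 at -0.33 (0.275), CCL3 at -0.38 (0.516) and CCL4 at -0.41 (0.634). With the counts of CCL4L2 added, the log2 fold change of CCL4 turned to 0.075 (adjusted p = 0.925). With a 2-fold limit as well 2 of the 3 calls were left, CCL5 being the one lost.

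With LPS, 2 of 8 genes tested were lower in shNR4A3 cells (2.46% of all genes) and 0 were higher, and the same 2 were those whose libraries did not overlap (27.5% of all genes). CCL5 was 800.1, 704 and 729 TPM with shNT and 556, 449 and 544 TPM with shNR4A3, a log2 fold change of -0.46 (SE 0.118, adjusted p = 0.0464). CCL23 was 32.3, 35.2 and 31.4 TPM with shNT and 13.5, 20.8 and 17.7 TPM with shNR4A3, a log2 fold change of -0.88 (SE 0.171, adjusted p = 0.0162). Both calls were lost in some of the fits that left out 1 library, while the direction was the same in each replicate number. Within number the ratio of shNR4A3 to shNT was 0.694, 0.638 and 0.746 for CCL5. For CCL23 it was 0.418, 0.592 and 0.564. Leaving out 1 library, CCL5 passed only without shNR4A3 replicate 1 (adjusted p = 0.0463) or 2 (0.0386), was at 0.134, 0.0764 and 0.115 without shNT replicate 1, 2 or 3, and at 0.0976 without shNR4A3 replicate 3. CCL23 passed without shNT replicate 1 (adjusted p = 0.046) or shNR4A3 replicate 2 (0.00829), and stood between 0.0515 and 0.0701 without each of the others, while the log2 fold changes stayed between -0.75 and -0.98.

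CCL2 with LPS was 141, 80.1 and 85.9 TPM with shNT and 111, 55.6 and 73.7 TPM with shNR4A3, which overlap, at -0.28 (SE 0.280, adjusted p = 0.596). The inducible CCL3, CCL4, CCL8 and CCL20 had log2 fold changes of -0.10, 0.10, 0.40 and -0.17, and CCL22 of -0.046, none past the test. The interval for CCL8 was wide, from -0.58 to 1.37.

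In shNR4A2 cells 0 of 7 genes tested passed without LPS (6.45% of all genes tested did, 3.63% higher and 2.82% lower) and 0 of 8 passed with LPS (6.96% of all genes, 4.31% higher and 2.65% lower). DESeq2 also called 0 in both, where it called 8.04% and 8.2% of the genes it tested, and 1 of 7 genes without LPS and 2 of 8 with LPS had an unadjusted p under 0.05, as did 3358 of 15800 and 3617 of 15590 genes of the table. CCL20 without LPS was 11.6, 6.82 and 6.94 TPM with shNT and 6.19, 5.25 and 4.16 TPM with shNR4A2, groups that did not overlap (26.2% of all genes did not), at -0.70 (SE 0.279, adjusted p = 0.169). CCL23 in the same cells was 21.1, 34.9 and 26.7 TPM, against 34.7, 42.6 and 33.5 TPM with shNT, at -0.43 (SE 0.213, adjusted p = 0.278). CCL2 and CCL5, both lower in shNR4A3 cells, had log2 fold changes of -0.25 (adjusted p = 0.593) and 0.11 here. With LPS, CCL5 was 929, 775 and 902 TPM against 800.1, 704 and 729 TPM with shNT, at 0.28 (SE 0.121, adjusted p = 0.199), and it passed only without shNR4A2 replicate 2 (adjusted p = 0.0358). CCL23 with LPS did not overlap (27.6% of all genes did not), at -0.38 (adjusted p = 0.211).

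**Figure D4:**
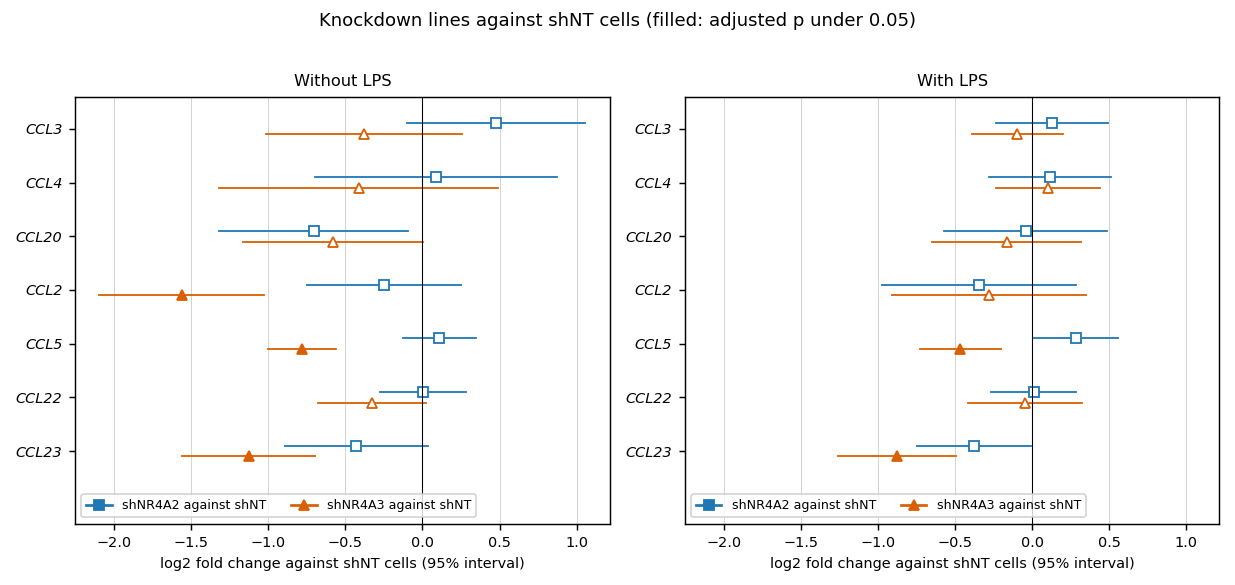
Points give the log2 fold change of shNR4A2 (squares) and shNR4A3 (triangles) cells against shNT cells (horizontal axis) with 95% intervals, without LPS at left and with LPS at right, filled where the adjusted p is under 0.05. Without LPS CCL2, CCL5 and CCL23 are filled for shNR4A3 (-1.56, -0.78 and -1.13), with LPS CCL5 and CCL23 (-0.46 and -0.88), and no shNR4A2 point is filled.

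Several of these results turned on replicate number. Libraries with the same number deviated together in all 4 comparisons (every correlation over 0.1), so the numbers were also fitted as a block, under which 23.6% of all genes passed in shNR4A2 against shNT without LPS and 28.1% with LPS, and 14.8% and 21.8% in shNR4A3 against shNT. In shNR4A2 control cells CCL20 (adjusted p = 0.029) and CCL23 (0.0401) then passed, 2 of 7. With LPS CCL2 (0.000292) and CCL5 (0.00177) passed in shNR4A2 cells, 2 of 8. Within number the CCL2 ratio of shNR4A2 to shNT with LPS was 0.750, 0.699 and 0.806 and that of CCL5 was 1.16, 1.10 and 1.24. In shNR4A3 cells with LPS CCL2 also passed (0.0112; ratios 0.788, 0.694 and 0.858), and CCL5 and CCL23 were at 0.000122 and 0.00131, 3 of 8. Each of these ratios lay on the same side of 1 in all 3 numbers, although the pooled groups of CCL2 overlapped. The counts of 2 of 7 and 2 of 8 in shNR4A2 cells are near these shares of all genes and so are no result about the chemokines as a group.

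**Figure D5:**
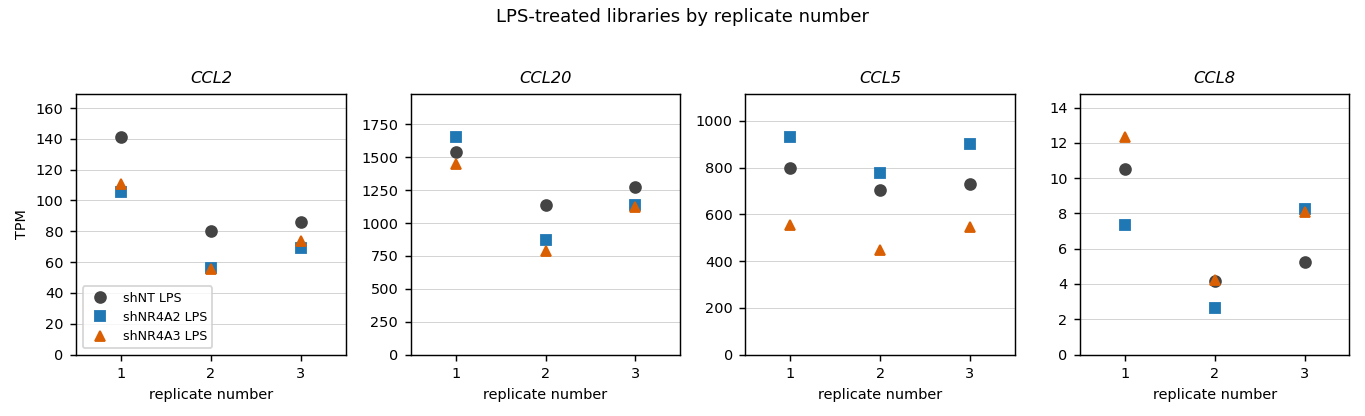
TPM (vertical axis from 0) of CCL2, CCL20, CCL5 and CCL8 in the LPS libraries is plotted against replicate number, with a circle for shNT, a square for shNR4A2 and a triangle for shNR4A3. Number 2 is the lowest in every line for these 4 genes, as for CCL4, while CCL3 was lowest at number 3 in every line and the other 4 members, among them CCL22, had no number that was lowest in all lines. Number 1 is the highest in every line for CCL2, CCL20 and CCL5. For CCL5 shNR4A2 lies above shNT and shNR4A3 below it in each number.

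The knockdown lines were also set against each other. Without LPS 2 of 7 genes were higher in shNR4A2 than in shNR4A3 cells (1.94% of all genes tested) and 0 were lower. CCL2 was 9.30, 10.1 and 7.95 TPM against 3.41, 3.42 and 3.81 TPM (log2 1.31, SE 0.218, adjusted p = 0.00501) and CCL5 548, 545 and 539 TPM against 279, 281 and 293 TPM (log2 0.89, SE 0.0944, adjusted p = 0.000204), and both calls held whichever library was left out, although with all 18 libraries in 1 fit CCL2 was at 0.0745. CCL3 (0.86, adjusted p = 0.112) and CCL23 (0.70, adjusted p = 0.155) passed with replicate number as a block (0.0264 and 0.0159), under which 11.6% of all genes passed. The libraries of these 4 genes did not overlap, against 19.4% of all genes. With LPS 1 of 8 was higher (1.27% of all genes), and the libraries of CCL5 and CCL23 did not overlap (22.9% of all genes). CCL5 was 929, 775 and 902 TPM against 556, 449 and 544 TPM (log2 0.75, SE 0.146, adjusted p = 0.0384), and of the fits that left out 1 library it passed only without shNR4A2 replicate 2 (adjusted p = 0.0251, others 0.0767 to 0.143). With the block CCL5 was at 4.83e-07 and CCL3 (0.23) at 0.00881, where 23.6% of all genes passed.

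Whether the response to LPS itself differed between lines was tested as an interaction. None of 8 members and 0 genes of the whole table passed by edgeR in any of the 3 pairs of lines. DESeq2 called 0 members and 2, 8 and 1 genes of the table (0.00454%, 0.0182% and 0.0023% of those it tested). By edgeR 365, 824 and 396 genes had an unadjusted p under 0.05. The rise of CCL2 was 3.46 in shNT, 3.36 in shNR4A2 and 4.73 in shNR4A3 cells, from unequal control levels to overlapping LPS levels. The difference of shNR4A3 from shNT was 1.28 (SE 0.462, 95% interval 0.30 to 2.26, unadjusted p = 0.0141 by edgeR, adjusted p = 0.942) and that of shNR4A2 from shNR4A3 -1.37 (SE 0.443, unadjusted p = 0.00725 by edgeR, adjusted p = 1). Without the filter on low counts these 2 differences passed (adjusted p = 4.45e-06 and 0.000157), and 138 and 29 genes of the table with them. The cause of that change was not tested. CCL20, with a rise of 7.48 in shNT and 8.15 in shNR4A2 cells, differed by 0.67 with an interval of -0.20 to 1.54. With the filter, and without the replicate number in the fit, an interaction was thus not shown for any of the 8 genes, and the intervals do not show that the responses were alike. With the number as a block CCL2 passed in shNR4A3 against shNT, 1 of 8, as did 22 genes of the table. The numbers do not pair those libraries by the rule given below.

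With LPS the receptor genes CCR1 and CCR2 fell in all 3 lines. Of 14 listed CC chemokine receptor genes, 6, 5 and 6 could be tested in shNT, shNR4A2 and shNR4A3 cells, of which 4, 3 and 4 were lower and 1, 2 and 2 higher, where 13.3%, 10.1% and 15% of all genes tested were lower and 11.6%, 9.23% and 13.1% higher. CCR2, the receptor of CCL2, CCL7 and CCL8, was 246, 154 and 155 TPM in shNT control libraries and 16.3, 15.9 and 6.94 TPM with LPS (log2 -3.63, SE 0.258, adjusted p = 1.41e-07). It fell by 3.38 in shNR4A2 and by 3.73 in shNR4A3 cells on the log2 scale. CCR1, which binds CCL3, CCL5, CCL7 and CCL23, was 104, 75.5 and 66.4 TPM in shNT control libraries and 12.4, 12.5 and 9.36 TPM with LPS (log2 -2.64, SE 0.172, adjusted p = 5.57e-08), and was lower by -2.60 and -2.36 in the other lines. ACKR2, a scavenging receptor for inflammatory CC chemokines, was lower too, at -1.38 in shNT cells. CCRL2, which binds chemerin and does not signal, was higher by 2.15, 3.65 and 3.99. CCR6, CCR4 and CCR8, the receptors of CCL20, CCL22 and CCL1, had 2, 17 and 7 counts over all 18 libraries.

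Some receptor genes differed between lines as well. In shNR4A3 control cells CCR1 (0.73, adjusted p = 0.0147) and CCR2 (0.79, adjusted p = 0.0144, but 0.0789 by DESeq2) were higher than in shNT cells, 2 of 5 tested, where 3.91% of all genes were higher. CCR2 was 370, 299 and 261 TPM there, against 246, 154 and 155 TPM with shNT, and the groups did not overlap. With LPS CCR1 and CCR7, the homing receptor of mature dendritic cells, were higher in both knockdown lines, 2 of 5 tested in shNR4A2 (4.31% of all genes) and 2 of 6 in shNR4A3 cells (3.99%). CCR7 was 0.834, 1.08 and 0.898 TPM in shNT, 2.98, 2.07 and 3.75 TPM in shNR4A2 and 3.09, 1.51 and 3.40 TPM in shNR4A3 cells (log2 1.71 and 1.59, adjusted p = 0.0175 and 0.0327). These CCR1 and CCR7 calls with LPS held in 1 or 2 of the 6 fits that left out 1 library, with adjusted p up to 0.155. In shNR4A2 control cells 0 of 5 receptor genes passed, and between the knockdown lines 0 passed. With replicate number as a block (the shares of all genes are given above for that fit) CCR1 (0.70, adjusted p = 2.49e-05) and CCR2 (0.72, adjusted p = 3.49e-06) were higher in shNR4A2 control cells, and CCR2 was higher with LPS by 0.96 in shNR4A2 cells (adjusted p = 1.3e-10) and by 0.70 in shNR4A3 cells (adjusted p = 0.000321), where CCRL2 was too (0.62, adjusted p = 0.0249). CCR2 was then also higher in shNR4A2 than in shNR4A3 cells with LPS (0.27, adjusted p = 0.0472).

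The LPS receptor and NF-kappaB genes gave the setting. Of 18 listed, 16, 17 and 16 were tested and 11, 8 and 11 were higher with LPS in shNT, shNR4A2 and shNR4A3 cells (11.6%, 9.23% and 13.1% of all genes tested), with 1 lower in each, the adaptor gene TIRAP (-0.93, -0.82 and -1.18). NFKBIA, which encodes the inhibitor IκBα, rose by 4.05, 4.28 and 3.76 and TNFAIP3, the A20 deubiquitinase, by 5.85, 5.78 and 6.30 (log2), while IRAK1 at 0.091, 0.062 and 0.070 did not pass. With LPS 0 of 16 differed from shNT in either knockdown line. Without LPS 2 of 17 were higher in shNR4A2 cells (3.63% of all genes), CD14 (1.15, adjusted p = 0.0188) and LY96 (1.83, adjusted p = 0.05, 0.113 by DESeq2 and lost whichever library was left out). LY96 had 152 counts over all 18 libraries, so the filter on low counts can have kept it through the shNR4A2 control libraries alone. Its place in any count out of 17 therefore carries no weight. In shNR4A3 control cells 2 of 16 were higher (3.91% of all genes), CD14 (0.87, adjusted p = 0.0489, 0.19 by DESeq2) and ZFP36 (0.39, adjusted p = 0.0265), which encodes a protein that promotes decay of AU-rich mRNAs. With replicate number as a block these counts were larger, with 8 of 17 without and 4 of 16 with LPS in shNR4A2 cells, 4 of 16 and 9 of 16 in shNR4A3 cells, and 2 of 17 and 7 of 16 between the knockdown lines, beside the shares of all genes given above for that fit.

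Myeloid differentiation genes differed between the lines beside the chemokines. Of the 10 monocytic markers 2 were higher in shNR4A2 cells than in shNT cells in both conditions, LYZ (log2 1.68 without and 1.76 with LPS) and CSF1R (0.77 and 0.87), where 3.63% and 4.31% of all genes were higher. In shNR4A3 cells 4 were higher in both conditions, LYZ (2.25 and 2.29), CSF1R (1.02 and 1.10), ITGAM (0.81 and 0.82) and SPI1 (0.37 and 0.55), where 3.91% and 3.99% of all genes were higher, and 0 were lower in either line. With replicate number as a block 7 and 6 of 10 differed in shNR4A2 cells without and with LPS (23.6% and 28.1% of all genes), ELANE (-0.41 and -0.38) and AZU1 (-0.37 and -0.31) then being lower, and 5 and 5 of 10 in shNR4A3 cells (14.8% and 21.8%), with FCGR1A lower with LPS (-0.19). Between the knockdown lines 0 of 10 passed, and 4 and 7 of 10 with the block (11.6% and 23.6% of all genes). LYZ, lysozyme, was 198, 177 and 202 TPM in shNT control libraries, 675, 462 and 709 TPM in shNR4A2 and 1040, 708 and 901 TPM in shNR4A3 libraries. The summed level of the 10 markers was 7403, 9217 and 8191 TPM in shNT control libraries, 6398, 8630 and 6623 TPM in shNR4A2 and 8743, 9979 and 8422 TPM in shNR4A3 libraries, so the sums overlapped. Whether these differences between lines have a part in the levels of CCL2, CCL5 and CCL23 was not tested. TRAC was lower in shNR4A3 than in shNT cells with LPS (-1.30, adjusted p = 0.0383, 0.0662 by DESeq2), at 1.47 against 3.78 TPM, a call kept in 1 of the 6 fits that left out 1 library. It was also higher in shNR4A2 than in shNR4A3 cells with LPS (1.68, adjusted p = 0.0188, 0.00706 by DESeq2), again kept in 1 of 6, and its part was likewise not tested. GP9 did not pass against shNT cells with LPS, at -0.80 in shNR4A2 (adjusted p = 0.135) and -1.03 in shNR4A3 cells (0.111). With the block it passed in both (0.0464 and 0.0341), where 28.1% and 21.8% of all genes did. In both conditions its libraries in each knockdown line lay below those of shNT, and its part was not tested either.

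Over the 18 libraries the members fell apart by which genes they ran with. Pearson's r of log2(TPM + 1) was computed against 19312 genes, as a description in which all points share their libraries and the LPS step. The closest to CCL4 were its copy CCL4L2 (r = 0.999), NFKBIZ and CXCL2 (both 0.998), and to CCL3 its copy CCL3L1 (0.999), NFKBIZ (0.997) and PLEK (0.996). CCL20 ran with the neutrophil chemokines CXCL8 and CXCL3 and with FCAR (all 0.997). For CCL2 the closest were MFSD2A (0.989), TRAF3 (0.987) and DUSP16 (0.985), and the closest member was CCL20 (0.969). CCL5 had lower values, with ATP9A at 0.949, AC092484.1 at 0.944 and SMCO4 at 0.932, and CCL2 the closest member at 0.805. CCL23 was closest to ANXA4 (0.925), CKAP4 (0.921) and EMID1 (0.917) and CCL22 to AC092802.2 (0.827), CNRIP1 (0.805) and SYNGR4 (0.784). The closest members to this pair stood at 0.450 (CCL5, for CCL23) and 0.412 (CCL23, for CCL22).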

How the data were processed

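Polyadenylated RNA of 18 THP-1 libraries was sequenced from both ends on a HiSeq. The authors deposited raw counts of reads (whole numbers, not normalised) for each Ensembl gene, with exon lengths. The submitters' processing notes name Trimmomatic 0.36, STAR 2.5.2b, featureCounts (Subread 1.5.2) and GRCh38. Strand setting, annotation release and treatment of multi-mapped reads are not given in the sources used here, so genes with near-identical copies are uncertain. Groups and replicate numbers came from the sample labels. The study's legends describe independent experiments and the labels give numbers only, so p-values measure the spread between these libraries.

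Counts were tested with edgeR 4.0.16 in R 4.3.3 (filterByExpr, TMM, quasi-likelihood F test), each pair of groups on its own 6 libraries and each interaction on 12, with Benjamini-Hochberg adjustment over all genes tested and a limit of 0.05. Symbols came from GENCODE 29 (56898 of 57500 genes), and no 2 libraries held identical counts. Exact permutation of 3 libraries against 3 cannot go below p = 0.1. Named genes were all 10 members, the hairpin targets, and from each list those called in a knockdown comparison and the 3 with the highest mean TPM; ACKR2, CCR6, CCR4, CCR8 and TIRAP were named after their values were seen. Alternatives were DESeq2 1.42.0, RLE size factors, no filter, a replicate block, 1 fit of all 18 libraries, a 2-fold limit, added counts of copies and each library left out. Same-numbered libraries correlated (deviations from group means) at 0.159 or more in the 6 comparisons between lines, and at 0.200 or more for LPS in shNR4A2 and shNR4A3 cells, but at 0.0602 at lowest for LPS in shNT cells, so the numbers pair libraries in all but that one, and in 1 of 3 interactions (shNR4A2 against shNR4A3, 0.125). The fit was also run on simulated data, from which no value is reported here. The members and lists were chosen with earlier results of these data known.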

Additional observations from a re-analysis of the deposited data

How the results depend on the processing

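The LPS calls of the members (6 higher, 0 lower of 8 tested in each line) were the same under DESeq2 (which also called CCL1 in shNR4A2 cells, 7 in all), RLE size factors, no filter, the replicate block, all 18 libraries in 1 fit, added copies and every library left out. With a 2-fold limit as well 5, 5 and 6 were called. CCL8 in every line and CCL4 in shNR4A3 cells passed the filter through their LPS libraries, and CCL1 had 0 control counts. Their places in these counts carry no weight, and the stability of their calls is no support. Members called in shNR4A2 against shNT cells rose from 0 to 2 with the replicate block in both conditions, and ran from 0 to 1 with LPS when 1 library was left out. In shNR4A3 against shNT cells without LPS the count of 3 became 2 with a 2-fold limit (CCL5 lost), and with LPS the count of 2 became 1 with RLE size factors (CCL5 lost), 0 with a 2-fold limit, and 0 to 2 with 1 library left out. Between the knockdown lines without LPS the count of 2 became 4 with the block, 1 with all 18 libraries in 1 fit (CCL2 lost, adjusted p = 0.0745) and 1 with a 2-fold limit, and with LPS the count of 1 became 2 with the block, 0 with a 2-fold limit and 0 to 1 with 1 library left out. Of the interactions, that of shNR4A3 against shNT gave 1 member with no filter and 1 with the replicate block (CCL2, adjusted p = 0.0321; the numbers do not pair these libraries by the rule used), and that of shNR4A2 against shNR4A3 gave 1 with no filter (CCL2 both times). The cause of these changes was not tested. Among the members the block changed no call other than those named here and in the report. It added further calls in the other lists, among them NR4A2 in shNR4A3 against shNT cells with LPS (-0.37, adjusted p = 0.00132).

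Reversals of sign were confined to values that did not pass the test. With 1 library left out, LPS gave -0.044 to 0.19 for CCL23 in shNT, -0.018 to 0.095 for CCL22 and -0.065 to 0.31 for CCL23 in shNR4A2 cells. In shNR4A2 against shNT cells without LPS the ranges were -0.42 to 0.043 for CCL2, -0.14 to 0.48 for CCL4 and -0.037 to 0.062 for CCL22, and CCL22 was -0.0019 with no filter and -0.0018 with all 18 libraries. With LPS they were -0.11 to 0.27 for CCL3, -0.076 to 0.29 for CCL4, -0.36 to 0.44 for CCL8, -0.36 to 0.18 for CCL20 and -0.061 to 0.057 for CCL22 (-0.0017 with no filter). In shNR4A3 against shNT cells with LPS they were -0.63 to 0.024 for CCL2, -0.069 to 0.25 for CCL4, -0.043 to 0.89 for CCL8, -0.43 to 0.060 for CCL20 and -0.23 to 0.091 for CCL22; without LPS CCL4 was 0.075 with the copies added. Between the knockdown lines CCL20 without LPS ran from -0.28 to 0.025, and with LPS CCL2 from -0.40 to 0.28, CCL3 from -0.017 to 0.41, CCL4 from -0.18 to 0.20 (-0.0049 with copies added), CCL20 from -0.20 to 0.39 and CCL22 from -0.085 to 0.24. In the interactions CCL2 ran from -0.43 to 0.22, CCL4 from -0.36 to 0.26, CCL22 from -0.057 to 0.062 (-0.0062 with no filter) and CCL23 from -0.11 to 0.27 for shNR4A2 against shNT, CCL8 from -1.50 to 2.18 for shNR4A3 against shNT (CCL3 -0.0046 with copies added), and CCL20 from -0.072 to 0.51 and CCL23 from -0.36 to 0.014 for shNR4A2 against shNR4A3. Differences between lines in CCL8 were not detected, and CCL1 and CCL7 had too few counts to be tested.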
